A study of Mus musculus with 40 samples.

Results

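The 32 genes described here make, sense and move cholesterol, and were chosen by gene symbol: 7 enzymes of the mevalonate steps, 11 of the squalene and sterol steps, 5 genes of the sterol sensor, and 9 genes of transport, storage and efflux. All 32 were in the deposited table of 25239 genes, and all 32 were among the 17106 genes with enough counts to test. They were measured in nuclei of astrocytes of the mouse primary visual cortex (V1), in 40 RNA-seq libraries and 12 groups. In GR-KO astrocytes Nr3c1, the gene of the glucocorticoid receptor (GR), was targeted by a Cre virus given to GR fl/fl mice just after birth, and GR-Con astrocytes of GR fl/fl mice received a ΔCre virus, a Cre without recombinase activity. Both viruses were AAV2/5 with the astrocyte promoter GfaABC1D and a GFP that marks the nuclear envelope, so every library, controls included, came from floxed mice injected with virus. Dark-reared mice (DR) and normally reared mice (NR) were compared at P14, P21 and P28, in both genotypes. Groups held 3 libraries, except the 4 DR groups at P21 and P28, which held 4. By the study's methods, nuclei of 1 male and 1 female mouse were pooled for each library and sorted for GFP. The comparisons ask how these genes differed with loss of GR, with visual experience and with age. Only RNA inside nuclei was measured, and the Cre acted where the GfaABC1D promoter was active.

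Cells build cholesterol from acetyl-CoA through mevalonate, the isoprenoids, squalene and a series of sterols. When sterol in the membrane of the endoplasmic reticulum is low, SCAP escorts the SREBP proteins to the Golgi, where they are cut to release factors that switch on the enzymes, while the INSIG proteins hold them back when sterol is plentiful. In the brain, which takes up little cholesterol from blood, astrocytes make cholesterol and pass it to neurons on APOE particles loaded by the ABC transporters, whose genes are targets of the liver X receptors (LXR). Oligodendrocytes also make much cholesterol, for myelin.

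Levels are given as CPM, TMM-scaled counts relative to the total over the genes tested. Apoe, the particle protein, was the most abundant member per length at 150.9 CPM per kb of gene body, averaged over the 40 libraries. Among the enzymes, Msmo1, the methyl sterol oxidase, had 12.7 CPM per kb, Hmgcs1, the synthase that makes HMG-CoA, had 10.0 CPM per kb, and Ebp, a sterol isomerase, had the lowest level at 0.455 CPM per kb. The lowest level of all 32 was that of Abcg1, an efflux transporter, at 0.308 CPM per kb. Reads were counted over exons and introns together, so overlapping genes bear on a few members. In the GENCODE annotation, 7 of the 32 gene bodies were covered by other genes over at least 10% of their length. Tm7sf2, a sterol reductase just below this cut, was covered over 9.58% on its own strand by Vps51. Mvd, the decarboxylase that ends the mevalonate steps, lay entirely under a gene model on the opposite strand, and 89.7% of Fdps, farnesyl diphosphate synthase, lay under a model on its own strand. Acat2, the thiolase that starts the pathway, has a near copy, Acat3, in the same table. Nr1h3, an LXR gene, was covered over 36.6% on its own strand, and Lss and Hmgcs1 over 44.1% and 34.6% on the opposite strand. The values of these genes and of Mvd, Fdps, Acat2 and Tm7sf2 are therefore less certain than the rest. The study counted reads with another annotation, UCSC refGene, and how far these overlaps enter its counts was not tested.

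The promoters of 6 enzymes that moved together are shown, because SREBP acts at such promoters beside the factors NF-Y and Sp1. Each stretch is the 200 bases before the RefSeq start site (GRCm38.p6), read 5′ to 3′ on the strand of the gene. The stretches lie at chr13:119690151-119690350 on the plus strand for Hmgcs1, chr13:8885406-8885605 on the plus strand for Idi1 (isopentenyl diphosphate isomerase), chr10:76531405-76531604 on the plus strand for Lss (lanosterol synthase), chr5:4104698-4104897 on the minus strand for Cyp51 (lanosterol demethylase), chrX:72918321-72918520 on the plus strand for Nsdhl (a sterol dehydrogenase) and chr1:169969206-169969405 on the minus strand for Hsd17b7 (a sterol ketoreductase). Capitals mark matches, on either strand, to the NF-Y box CCAAT and to the sterol regulatory element TCACNCCAC.
Hmgcs1: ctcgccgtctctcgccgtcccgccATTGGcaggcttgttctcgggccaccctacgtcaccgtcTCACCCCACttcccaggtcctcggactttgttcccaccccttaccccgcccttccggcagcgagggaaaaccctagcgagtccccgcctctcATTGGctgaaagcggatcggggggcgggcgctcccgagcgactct
Idi1: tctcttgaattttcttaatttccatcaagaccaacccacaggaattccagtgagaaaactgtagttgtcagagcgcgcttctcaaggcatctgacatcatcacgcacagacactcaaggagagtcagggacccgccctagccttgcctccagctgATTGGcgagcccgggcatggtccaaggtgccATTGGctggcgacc
Lss: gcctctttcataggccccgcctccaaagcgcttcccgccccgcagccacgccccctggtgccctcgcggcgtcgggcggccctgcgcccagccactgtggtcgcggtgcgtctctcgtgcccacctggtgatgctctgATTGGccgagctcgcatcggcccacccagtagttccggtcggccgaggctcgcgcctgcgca
Cyp51: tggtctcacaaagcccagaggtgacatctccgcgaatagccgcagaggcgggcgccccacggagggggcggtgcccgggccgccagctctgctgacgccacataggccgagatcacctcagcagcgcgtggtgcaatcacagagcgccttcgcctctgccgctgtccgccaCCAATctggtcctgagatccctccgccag
Nsdhl: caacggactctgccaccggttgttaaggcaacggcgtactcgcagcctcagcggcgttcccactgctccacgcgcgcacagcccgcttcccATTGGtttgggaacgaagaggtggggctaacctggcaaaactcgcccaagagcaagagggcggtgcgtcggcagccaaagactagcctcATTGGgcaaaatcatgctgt
Hsd17b7: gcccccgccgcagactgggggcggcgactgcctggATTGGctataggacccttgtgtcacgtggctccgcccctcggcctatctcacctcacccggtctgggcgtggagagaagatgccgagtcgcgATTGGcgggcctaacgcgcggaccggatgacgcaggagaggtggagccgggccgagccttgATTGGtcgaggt

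Of these stretches, Hmgcs1 alone held the sterol regulatory element, 1 match, and Hsd17b7 held the most NF-Y boxes, 3. RefSeq windows of 300 bases, 250 before the start and 50 from it on, were found for 26 members, 15 of them enzymes. The NF-Y box was in the windows of 14 of these 15 enzymes and of 20 of the 26 members, against 41.0% of 26994 genes. The Sp1 box GGGCGG was also in 14 of the 15 enzymes and in 22 of the 26 members, against 38.2% of all genes. The sterol element was in 1 of the 26 members against 1.44% of all genes, the E-box CACGTG was in 6 against 8.09%, and ACANNNTGT, a short core of the element that binds GR, was in 1, Acat2, against 7.90%. All motifs were searched on both strands, and a match is only a run of letters. The 26994 genes include genes with too few counts to test here, while all 26 members were tested. These sets therefore differ in expression as well as in pathway.

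Library totals ran from 17240294 to 49221787 counts, and the P21 NR libraries were the shallowest, at 17240294 to 28137389. Hif3a, a GR target, lay between 16.1 and 33.3 CPM over 20 GR-KO libraries, against 71.7 to 241 CPM over 20 GR-Con libraries. By this gene each library matched its genotype label. The other targets examined, Zbtb16, Fkbp5, Tsc22d3, Per1 and Sgk1, overlapped between the genotypes over all ages. Zbtb16 lay between 46.8 and 139.8 CPM in GR-KO and between 71.3 and 633.8 CPM in GR-Con libraries. Counts of Nr3c1 over the gene body did not check the genotype, since reads outside the deleted part stay. Astrocyte markers summed to 10746 to 17102 CPM and neuron markers to 1759 to 3624 CPM, so neuron transcripts were present in the sorted nuclei, and in such bulk RNA fewer cells of a type and less RNA per cell cannot be told apart. All 10 oligodendrocyte markers were detected, and they summed to 235 to 466 CPM at P14 and to 688 to 1522 CPM at P21 and P28. Replicate 3 of the P14 NR GR-KO group held 14 counts of Y-linked genes, against 2245 or more in every other library, which goes against a pool with a male. Replicate 2 of the P21 DR GR-Con group had the most detected genes, 19795, and replicate 1 of the P21 NR GR-Con group the fewest, 17322. These 3 are called the libraries with unusual quality measures, and a fit without them ended 15 of the calls of a member given below and reversed none.

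The levels of the enzymes varied together from library to library, and some NR GR-KO libraries stood far above the rest. The 18 enzymes summed to 928, 894, 997 and 897 CPM in the P28 DR GR-KO libraries and to 851, 809, 858 and 1033 CPM in the P28 DR GR-Con libraries. They summed to 1898, 1724 and 947 CPM in the P28 NR GR-KO libraries and to 1318, 1181 and 1017 CPM in the P28 NR GR-Con libraries. Replicates 1 and 2 of the P28 NR GR-KO group were thus the highest of all 40 libraries, while replicate 3 of that group lay inside the range of the DR libraries. At P21 the sums were 1055, 1041, 906 and 965 CPM in DR GR-KO libraries, 786, 809, 726 and 814 CPM in DR GR-Con libraries, 1472, 1003 and 1059 CPM in NR GR-KO libraries and 1035, 1040.2 and 1029.8 CPM in NR GR-Con libraries. Replicate 1 of the NR GR-KO group was again high, and the 4 DR GR-Con libraries lay below all others of that age. At P14 the sums were 1205, 1205 and 1142 CPM in DR GR-KO libraries, 1157, 1149.8 and 1322 CPM in DR GR-Con libraries, 1208, 1124 and 1079 CPM in NR GR-KO libraries and 1032, 1076 and 1125 CPM in NR GR-Con libraries. The NR GR-Con libraries lay below both DR groups there, and every other pair of groups overlapped.

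**Figure D1:**
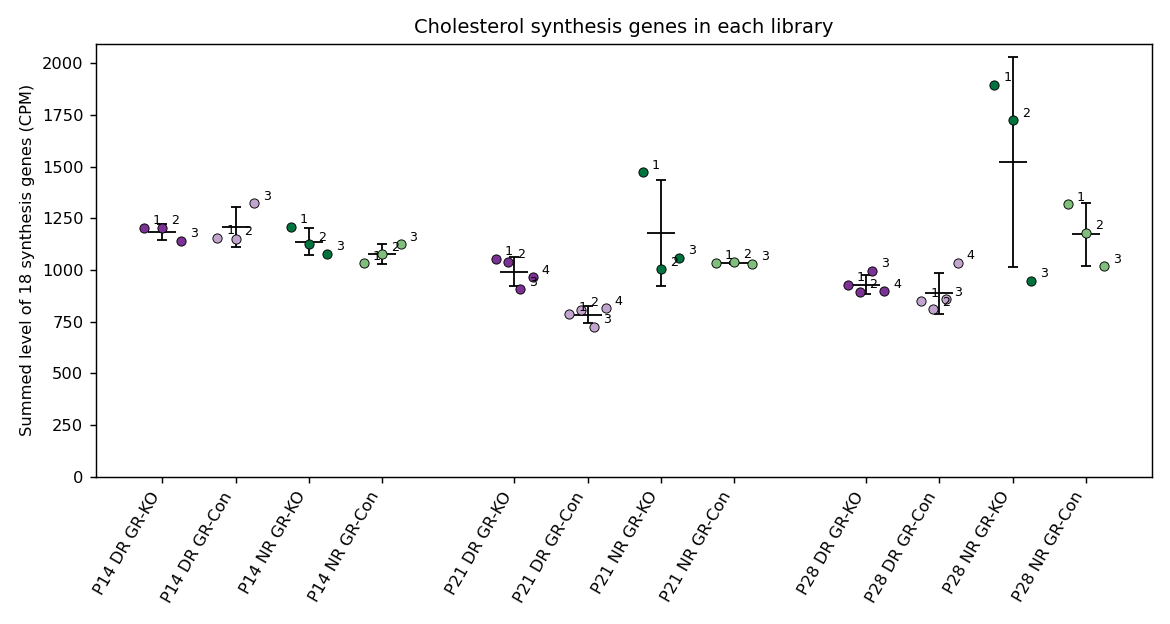
Summed level of the 18 synthesis genes (y axis, CPM) in each of the 40 libraries (points, with the replicate number) by group (x axis), with the group mean and SD as bars. Replicates 1 and 2 of the P28 NR GR-KO group, at 1898 and 1724 CPM, stand above all others, and replicate 3 is at 947 CPM.

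The libraries with high enzyme levels, which are not those 3, differed in other measures too. In the P28 NR GR-KO group, oligodendrocyte markers summed to 896, 889 and 1081 CPM, lower in the pair with high enzyme levels. Astrocyte markers summed to 14208, 14756 and 12011 CPM, and the slope of log2 CPM on log10 gene length was 0.166, 0.246 and -0.0657. The TMM factors were 0.921, 0.882 and 1.02, and a lower factor raises the CPM of every gene in a library. In the P21 NR GR-KO group the factors were 0.912, 1.03 and 0.983. Replicate 1 of the P21 NR GR-KO group had a slope of 0.174, against 0.000601 and -0.0153 in replicates 2 and 3, and its oligodendrocyte markers were at 727 CPM, against 1081 and 990 CPM. Over all 40 libraries, the deviation of the 18 enzymes from their group mean had a Pearson r of 0.27 with that of the astrocyte markers, -0.11 with the oligodendrocyte markers, 0.35 with the length slope and 0.35 with the library total, as a description of libraries that share their groups and scaling. The part of these measures in the results was not tested, beyond the fits below with DESeq2 size factors, the length slope or marker scores.

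Within groups, the enzymes, Insig1, Srebf2 and Stard4 varied together and most carriers did not. Each gene was set against the mean of the other enzymes, as deviations of log2 CPM from the group mean over 40 libraries. Fdps had an r of 0.95, Cyp51 of 0.94 and Dhcr7, the reductase that ends the pathway, of 0.94, and 17 of the 18 enzymes were above 0.5. Ebp was the exception at -0.05. Among the sensor genes, Insig1 was at 0.80 and Srebf2 at 0.69, while Srebf1 was at 0.015, Scap at 0.042 and Insig2 at 0.045. Stard4, a carrier of free sterol inside the cell, was at 0.79, against -0.29 for Apoe and -0.29 for Abcg1. Without the 6 NR libraries at P28, Fdps had an r of 0.89, Cyp51 of 0.865 and Hmgcs1 of 0.34 over 34 libraries, against 0.68 for Hmgcs1 over all 40. These libraries share reads, scaling and the high libraries named above, and no test was made.

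**Figure D2:**
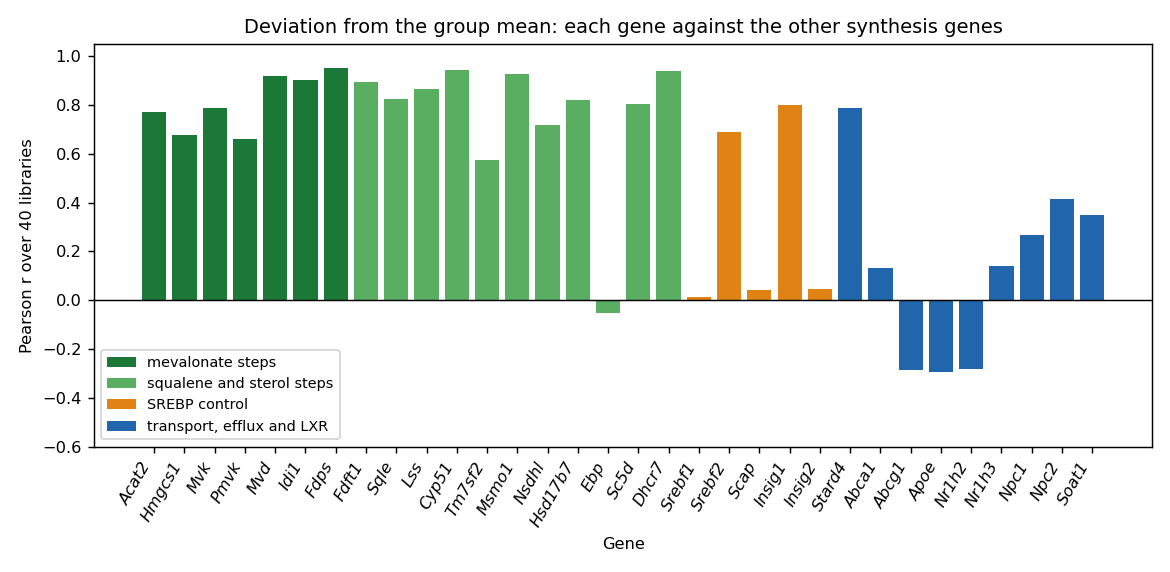
Pearson r (y axis) between the deviation of each gene from its group mean and the mean deviation of the other synthesis genes, over 40 libraries, for the 32 genes (x axis) coloured by role. The enzymes other than Ebp reach 0.57 to 0.95, as do Srebf2, Insig1 and Stard4, while Apoe and Abcg1 are below 0.

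Dark rearing went with lower enzyme levels in GR-KO astrocytes at P28. A gene was called for rearing at an adjusted p under 0.05 over the 17106 genes of edgeR's quasi-likelihood test. Of the 32 genes, 15 fell in DR, against 0.561% of all genes, and none rose. These were 5 of the 7 mevalonate enzymes, 8 of the 11 squalene and sterol enzymes, Insig1 and Stard4. The median over the 32 genes was -0.56 on the log2 scale, against 0.00 over all genes, and over the 18 enzymes it was -0.73. Hsd17b7 had 35.3, 27.997, 32.9 and 33.2 CPM in DR GR-KO libraries, against 89.8, 85.2 and 32.2 CPM in NR GR-KO libraries (log2 difference -1.09, SE 0.18, adjusted p = 0.0016). Replicates 1 and 2 of the NR group were the high ones, and replicate 3 lay within the DR range, so the groups overlapped. Stard4 had 14.6, 16.2, 19.9 and 18.04 CPM in DR GR-KO libraries and 42.7, 36.4 and 21.2 CPM in NR GR-KO libraries (log2 difference -0.96, SE 0.16, adjusted p = 0.0016), and here every DR library lay below every NR library. Cyp51 had 70.9, 65.1, 82.8 and 66.1 CPM in DR GR-KO libraries and 156, 149.5 and 78.2 CPM in NR GR-KO libraries (log2 difference -0.84, SE 0.14, adjusted p = 0.0018). Idi1 had 16.2, 15.02, 16.6 and 14.7 CPM in DR GR-KO libraries and 45.99, 43.2 and 13.5 CPM in NR GR-KO libraries (log2 difference -1.13, SE 0.23, adjusted p = 0.0076). For Cyp51 and Idi1 the groups overlapped through replicate 3 of the NR group, which for Idi1 was below all DR libraries.

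The other mevalonate enzymes that fell in this comparison followed the same libraries. Hmgcs1 had 121, 138, 154 and 137 CPM in DR GR-KO libraries and 289.6, 279 and 149.8 CPM in NR GR-KO libraries (log2 difference -0.80, SE 0.16, adjusted p = 0.0091). Pmvk, phosphomevalonate kinase, had 28.2, 28.2, 32.9 and 29.98 CPM in DR GR-KO libraries and 63.7, 52.5 and 35.1 CPM in NR GR-KO libraries (log2 difference -0.76, SE 0.16, adjusted p = 0.016). Pmvk did not overlap between the groups, while Hmgcs1 overlapped by replicate 3 of NR alone. Mvd had 17.4, 12.2, 14.9 and 13.4 CPM in DR GR-KO libraries and 36.2, 31.5 and 13.2 CPM in NR GR-KO libraries (log2 difference -0.90, SE 0.19, adjusted p = 0.014). Fdps had 23.2, 19.7, 25.3 and 22.7 CPM in DR GR-KO libraries and 56.5, 45.2 and 21.02 CPM in NR GR-KO libraries (log2 difference -0.85, SE 0.19, adjusted p = 0.02). Both overlapped, with replicate 3 of NR inside the DR range. Acat2 and Mvk, mevalonate kinase, gave log2 differences of -0.56 (adjusted p = 0.17) and -0.73 (adjusted p = 0.093).

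Among the squalene and sterol enzymes, Lss had 21.3, 16.6, 18.8 and 14.3 CPM in DR GR-KO libraries and 52.3, 39.7 and 18.3 CPM in NR GR-KO libraries (log2 difference -1.05, SE 0.21, adjusted p = 0.0077). Nsdhl had 68.6, 71.6, 64.6 and 58.4 CPM in DR GR-KO libraries and 132, 121 and 77.5 CPM in NR GR-KO libraries (log2 difference -0.74, SE 0.16, adjusted p = 0.02). Lss overlapped between the groups and Nsdhl did not. Dhcr7 had 41.1, 32.8, 41.04 and 37.5 CPM in DR GR-KO libraries and 76.6, 71.7 and 36.5 CPM in NR GR-KO libraries (log2 difference -0.69, SE 0.15, adjusted p = 0.02). Msmo1 had 178, 180.2, 187 and 172 CPM in DR GR-KO libraries and 356, 317 and 178 CPM in NR GR-KO libraries (log2 difference -0.66, SE 0.15, adjusted p = 0.021). Both had the high pair of NR libraries and a replicate 3 inside the DR range. Sqle, squalene epoxidase, had 49.8, 51.03, 58.1 and 50.6 CPM in DR GR-KO libraries and 100.1, 90.5 and 50.2 CPM in NR GR-KO libraries (log2 difference -0.62, SE 0.15, adjusted p = 0.038). Fdft1, squalene synthase, had 143, 134, 147 and 135 CPM in DR GR-KO libraries and 247, 237 and 132 CPM in NR GR-KO libraries (log2 difference -0.56, SE 0.13, adjusted p = 0.036). Insig1, the SREBP retainer, had 48.3, 41.4, 63.6 and 56.6 CPM in DR GR-KO libraries and 105, 86.3 and 58.9 CPM in NR GR-KO libraries (log2 difference -0.67, SE 0.15, adjusted p = 0.018). All 3 overlapped through replicate 3 of NR.

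Only 3 of the 32 genes, Nsdhl, Pmvk and Stard4, had every DR library below every NR library, against 3.7% of all genes. The count of 15 rested on single libraries: it was 0 without NR GR-KO replicate 1, 3 without NR GR-KO replicate 2, while it was 19 when NR GR-KO replicate 3 was left out. Leaving out DR GR-KO replicate 2 gave 9, and leaving out DR GR-KO replicate 4 gave 6. In a fit to the 7 libraries of this comparison alone it was 0. With the marker scores of oligodendrocytes and neurons as covariates it was 20, and with the length slope it was 13.

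In GR-Con astrocytes at P28, all 18 enzymes had log2 differences below 0 between DR and NR, and 2 genes fell, Cyp51 and Pmvk, against 0.386% of all genes called lower. Cyp51 had 58.4, 60.4, 63.2 and 77.5 CPM in DR GR-Con libraries and 112, 107 and 84.8 CPM in NR GR-Con libraries (log2 difference -0.64, SE 0.14, adjusted p = 0.028). Pmvk had 23.3, 25.8, 28.7 and 28.1 CPM in DR GR-Con libraries and 35.2, 63.98 and 30.8 CPM in NR GR-Con libraries (log2 difference -0.71, SE 0.16, adjusted p = 0.036). Neither overlapped, and Pmvk was high in NR replicate 2 alone. In all, 5 of the 32 genes had every DR library below every NR library, against 4.67% of all genes. Both calls depended on the libraries in the fit: the count was 0 without DR GR-Con replicate 1, 2 or 3 or NR GR-Con replicate 2, and 1 without DR GR-Con replicate 4 or NR GR-Con replicate 1. It was 0 in the fit to these 7 libraries alone.

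At P21, Srebf1, which encodes the SREBP best known for fatty acid synthesis, rose in DR GR-Con astrocytes, and Nsdhl fell. Srebf1 had 101, 90.8, 97.5 and 90.9 CPM in DR GR-Con libraries and 55.8, 56.4 and 67.1 CPM in NR GR-Con libraries (log2 difference 0.67, SE 0.10, adjusted p = 0.00082). Nsdhl had 42.6, 51.2, 39.97 and 55.8 CPM in DR GR-Con libraries and 86.7, 80.97 and 92.5 CPM in NR GR-Con libraries (log2 difference -0.87, SE 0.17, adjusted p = 0.0063). Neither gene overlapped between the groups, and both calls held without any 1 of the 7 libraries and under all 8 other settings. They were the only members called, 1 higher against 0.649% of all genes and 1 lower against 0.602%. The 18 enzymes had a median log2 difference of -0.35, against 0.02 over all genes, and 17 of them were below 0. Of the 32 genes, 15 had every DR library below every NR library, against 9.45% of all genes. A fit to these 7 libraries alone called 11 members, and the fit with the marker scores called 5. The NR libraries here held 17240294 to 24308989 counts and the DR libraries 38176971 to 41532457, so depth and rearing cannot be told apart at this age.

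In GR-KO astrocytes at P21, Nsdhl had 73.7, 74.99, 53.7 and 48.8 CPM in DR GR-KO libraries and 148, 80.5 and 92.1 CPM in NR GR-KO libraries (log2 difference -0.77, SE 0.16, adjusted p = 0.04). The groups did not overlap, and it was the 1 member called lower, against 0.0818% of all genes. Without NR GR-KO replicate 1, DR GR-KO replicate 3 or DR GR-KO replicate 4 no member was called, nor without the 3 libraries with unusual quality measures or in the fit to these 7 libraries alone. Srebf1 had 82.96, 92.8, 90.7 and 110.2 CPM in DR GR-KO libraries and 73.8, 71.5 and 78.02 CPM in NR GR-KO libraries, with a log2 difference of 0.34 and an adjusted p of 0.17. At P14 no member was called for rearing in GR-KO or in GR-Con astrocytes by edgeR or by DESeq2. There 0% of all genes were called in either genotype, and at an unadjusted p under 0.05 the members were 0 in GR-KO and 1 in GR-Con. The direction there was the other way: 16 of the 18 enzymes were above 0 in DR in GR-KO astrocytes (median 0.05) and 18 of the 18 in GR-Con astrocytes (median 0.20), against 0.00 over all genes in both.

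**Figure D3:**
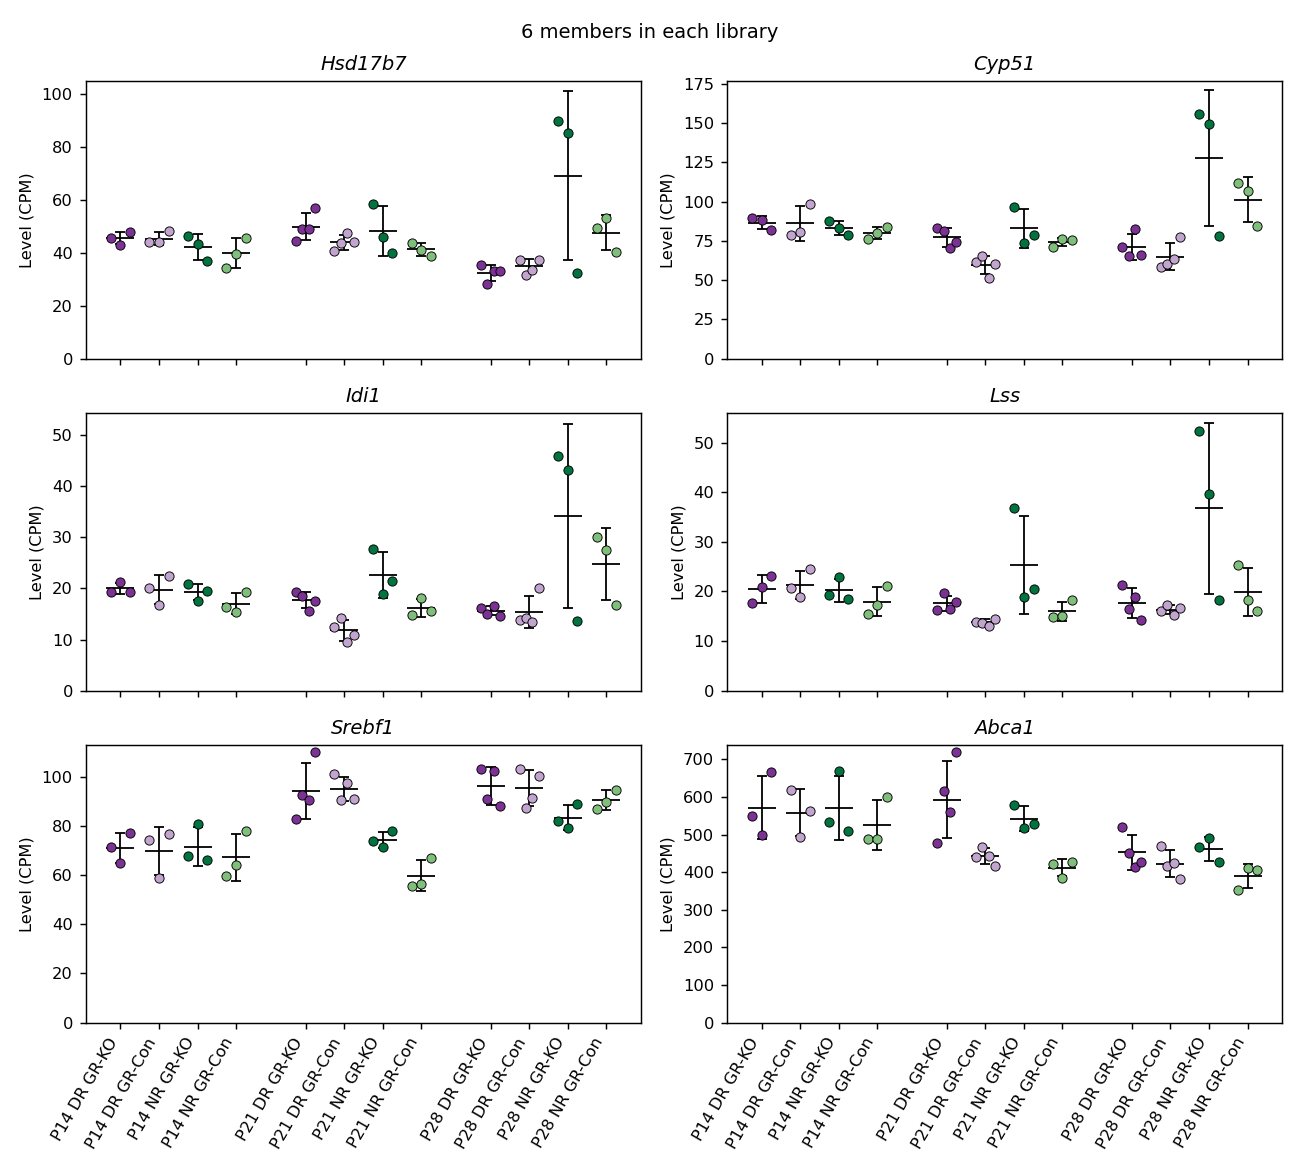
Level (y axis, CPM) of Hsd17b7, Cyp51, Idi1, Lss, Srebf1 and Abca1 in each library (points) by group (x axis), with the group mean and SD as bars. The 4 enzymes are highest in the NR GR-KO libraries at P28 that have 89.8 and 85.2 CPM of Hsd17b7. The remaining library of that group, at 32.2 CPM of Hsd17b7, lies within the range of the other groups for all 4 enzymes. Srebf1 has its lowest group mean in NR GR-Con at P21.

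Averaged over the 6 pairs of age and genotype, 12 members were lower in DR, against 1.89% of all genes, and Srebf1 was higher, against 1.22%. This average joins enzyme differences mostly below 0 at P21 and P28 with differences mostly above 0 at P14. Nsdhl (log2 difference -0.38, SE 0.07, adjusted p = 0.00092), Cyp51 (log2 difference -0.29, SE 0.06, adjusted p = 0.0042) and Hmgcs1 (log2 difference -0.31, SE 0.07, adjusted p = 0.0066) had the smallest adjusted p of the genes that fell. The others were Mvk, Pmvk, Idi1, Fdps, Sqle, Msmo1, Sc5d (a sterol desaturase), Dhcr7 and Stard4. Srebf1 was 1.17-fold higher (log2 difference 0.22, SE 0.04, adjusted p = 0.0018), and its call held without any 1 of the 40 libraries. Its largest single differences were at P21, 0.67 in GR-Con and 0.34 in GR-KO astrocytes, and it was not called at P14 or P28. Depth and rearing cannot be told apart at P21, and leaving out 1 library does not change that. The count of members called, 13 in all, was 8 without P21 NR GR-KO replicate 1 or P28 NR GR-KO replicate 1, 9 without P28 NR GR-KO replicate 2, and 18 without P28 NR GR-KO replicate 3.

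**Figure D4:**
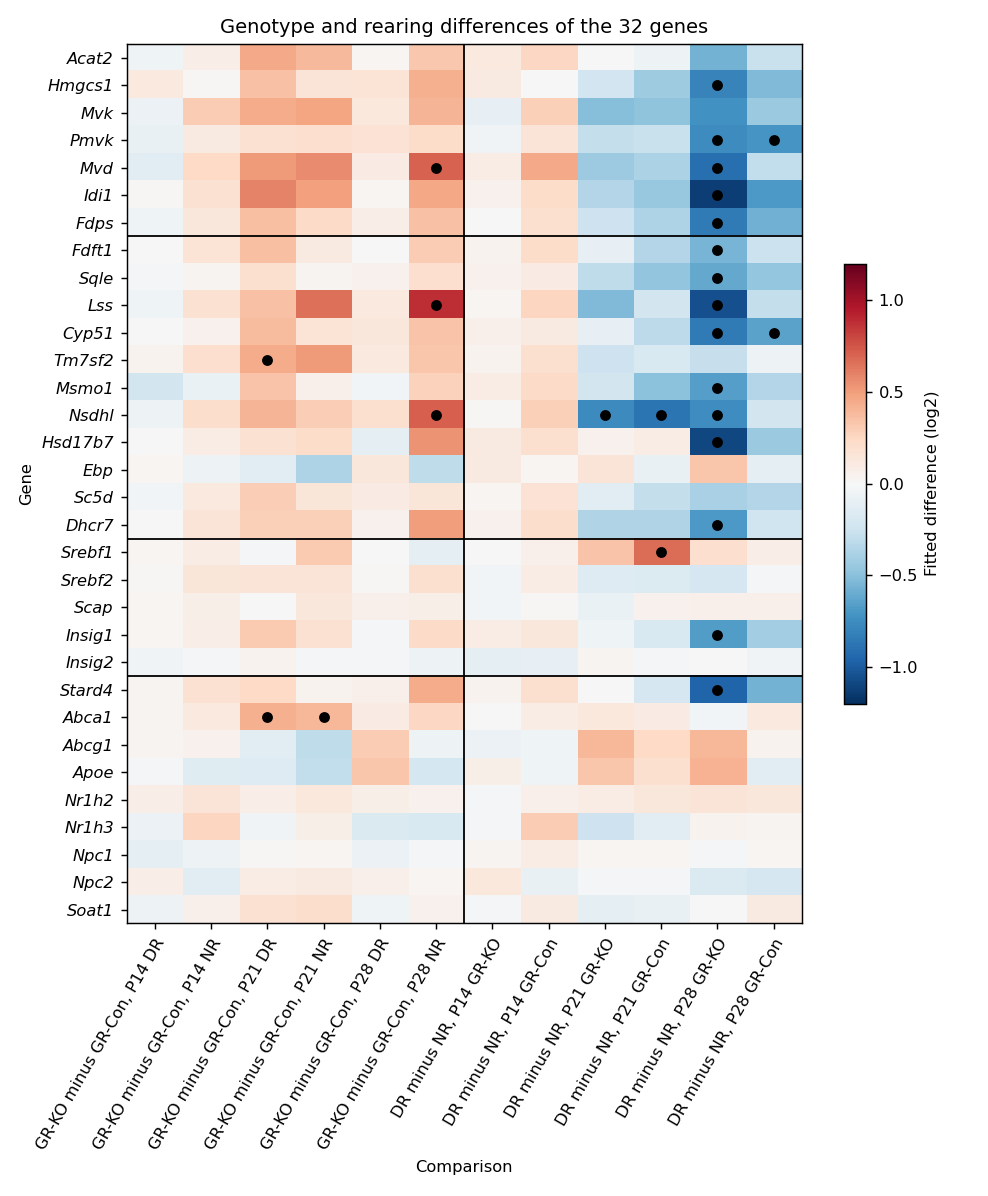
Fitted log2 differences (colour) of the 32 genes (rows, grouped by role) in the 6 GR-KO minus GR-Con and the 6 DR minus NR comparisons (columns), with a dot where the gene was called. Of the 18 enzymes, 17 are below 0 in DR in GR-KO astrocytes at P28, where 15 of the 32 genes have a dot, and 17 are above 0 in GR-KO under DR at P21.

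Loss of GR went with higher Abca1 at P21, under both rearing conditions. A gene was called for genotype at an adjusted p under 0.05 and a log2 difference over 0.1 in size. Abca1, which loads cholesterol onto particles, had 478, 615, 559 and 720.0 CPM in DR GR-KO libraries and 441, 468, 443 and 416 CPM in DR GR-Con libraries (log2 difference 0.42, SE 0.11, adjusted p = 0.011). It had 579.9, 518 and 529 CPM in NR GR-KO libraries and 422, 386 and 427 CPM in NR GR-Con libraries (log2 difference 0.40, SE 0.13, adjusted p = 0.045). Every GR-KO library lay above every GR-Con library in both conditions. Tm7sf2, a sterol reductase, had 19.6, 26.997, 18.3 and 20.6 CPM in DR GR-KO libraries and 13.8, 16.8, 14.4 and 17.8 CPM in DR GR-Con libraries (log2 difference 0.44, SE 0.14, adjusted p = 0.042), also without overlap. These were the members called, 2 in DR against 4.3% of all genes called higher, and 1 in NR against 4.67%. For 32 genes both counts are near the share over all genes. In DR, 18 of the 32 genes had every GR-KO library above every GR-Con library, against 9.3% of all genes, and in NR 7 had, against 13% of all genes. The medians over the 18 enzymes were 0.36 in DR and 0.23 in NR, against -0.01 and 0.02 over all genes. Markers of other cells moved with genotype: in NR, neuron markers summed to 2138, 3424 and 2882 CPM in GR-KO libraries and 3614, 3624 and 3532 CPM in GR-Con libraries, and oligodendrocyte markers to 727, 1081 and 989.5 CPM in GR-KO and 1107, 1339 and 1309 CPM in GR-Con libraries, neither with overlap. In DR, neuron markers summed to 3378, 2663, 3120.3 and 2511 CPM in GR-KO libraries and 3588, 3199, 3486 and 3557 CPM in GR-Con libraries, and oligodendrocyte markers to 1522, 1088, 1123 and 1019 CPM in GR-KO and 1468, 1208, 1412 and 1517 CPM in GR-Con libraries, with overlap. With the scores of these markers as covariates 0 members were called in NR and 1 in DR. A fit to the 8 DR libraries alone called 15 members.

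The P21 calls were close to the threshold. In DR the count was 0 without GR-KO replicate 4. It was 1 when GR-KO replicate 2 or GR-Con replicate 1, 2 or 3 was left out, and also without the 3 libraries with unusual quality measures. Abca1 was called with 7 of the 8 libraries left out in turn. In NR the count was 0 without GR-KO replicate 1 or 3 or GR-Con replicate 1 or 2, 3 when GR-KO replicate 2 was left out, and 0 without those 3 libraries. Abca1 in NR lost its call whichever of the 6 libraries was left out, and under 5 of 8 other settings.

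At P28, Lss, Nsdhl and Mvd rose in NR GR-KO astrocytes, against 3.4% of all genes called higher. Nsdhl had 132, 121 and 77.5 CPM in NR GR-KO libraries and 68.6, 62.8 and 69.2 CPM in NR GR-Con libraries (log2 difference 0.72, SE 0.18, adjusted p = 0.012), with no overlap. Lss had 52.3, 39.7 and 18.3 CPM in NR GR-KO libraries and 25.3, 18.3 and 16.1 CPM in NR GR-Con libraries (log2 difference 0.88, SE 0.23, adjusted p = 0.017). Mvd had 36.2, 31.5 and 13.2 CPM in NR GR-KO libraries and 19.3, 15.8 and 14.4 CPM in NR GR-Con libraries (log2 difference 0.71, SE 0.21, adjusted p = 0.039). For Lss and Mvd replicates 1 and 2 of GR-KO were above all GR-Con libraries and replicate 3 was not. Of the 32 genes, 4 had every GR-KO library above every GR-Con library, against 9.01% of all genes. The count of 3 was 0 without GR-KO replicate 1 or 2 and 16 when GR-KO replicate 3 was left out, and with GR-Con replicate 3 left out it was 1. It was 0 in the fit to the 6 libraries alone and 0 with the length slope as covariate.

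In DR GR-KO astrocytes at P28 no member was called by edgeR or DESeq2, against 2.84% of all genes, and 2 had an unadjusted p under 0.05. At P14 no member was called by either tool, in NR against 1.11% of all genes and in DR against 0.275%, and none had an unadjusted p under 0.05. Idi1 gave a log2 difference of 0.02 between GR-KO and GR-Con in DR at P28, with a 95% interval -0.41 to 0.45. For Hmgcs1 the value was 0.16, with a 95% interval -0.15 to 0.47. With 4 libraries a group, differences inside these intervals remain possible.

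Averaged over the 6 pairs of age and rearing, 11 members were higher in GR-KO, against 10.5% of all genes, and none was lower. They were Abca1 (log2 difference 0.22, SE 0.05, adjusted p = 0.00096), Tm7sf2 (log2 difference 0.28, SE 0.06, adjusted p = 0.0011), Nsdhl (log2 difference 0.30, SE 0.07, adjusted p = 0.0017), Mvd (log2 difference 0.33, SE 0.08, adjusted p = 0.003), Lss (log2 difference 0.36, SE 0.09, adjusted p = 0.0038), Srebf2 (log2 difference 0.11, SE 0.03, adjusted p = 0.014), Mvk, Dhcr7, Idi1, Hmgcs1 and Cyp51. Srebf2 encodes the SREBP best known for cholesterol synthesis. Abca1, Tm7sf2, Nsdhl, Mvd and Lss were called without any 1 of the 40 libraries and under all 7 other settings. Leaving out 1 library keeps the other high NR GR-KO libraries in the fit. This average joins unlike pairs, with enzyme medians from -0.02 in DR at P14 to 0.36 in DR at P21. The count of 11 was 6 without P21 NR GR-KO replicate 1, 8 without P28 NR GR-KO replicate 1 or 2, and 18 without P28 NR GR-KO replicate 3. With the marker scores or the length slope as covariates it was 7 in either fit.

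The effect of GR was not shown to differ for any member between DR and NR or between ages. Of the 7 such tests, all called 0 members by edgeR and by DESeq2. The shares of all genes called were 0% at P14, 0% at P21 and 0.00585% at P28 for DR against NR, 0.304% in NR and 0.0935% in DR for P21 against P14, and 0.14% in NR and 0.00585% in DR for P28 against P21. At an unadjusted p under 0.05, the most members were 6 for DR against NR at P28 and 5 each for the age steps in DR. Without P28 NR GR-KO replicate 3, 1 member was called for DR against NR at P28.

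From P14 to P21 the enzymes fell in DR GR-Con astrocytes, while Abcg1 and Soat1 rose in most groups. A gene was called for age at an adjusted p under 0.05 and a log2 difference over 0.3 in size, P21 minus P14. In DR GR-Con astrocytes 18 members were lower, against 6.72% of all genes, and 3 were higher, against 6.52%. In DR GR-KO astrocytes 4 were lower against 6.02% and 3 were higher against 5.52%. In NR GR-KO astrocytes 1 was lower against 4.82% and 2 were higher against 5.22%, and in NR GR-Con astrocytes 1 was lower against 7.12% and 3 were higher against 6.53%. No gene was called in all 4 steps, and those called in 3 of the 4 are given, which was settled after the values were seen. Whether the steps differ between the groups is given only for genotype, by the tests above.

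Tm7sf2 had 30.1 ± 5.08 CPM at P14, 15.7 ± 1.91 CPM at P21 and 23.6 ± 3.58 CPM at P28 in DR GR-Con libraries (SD, n = 3, 4 and 4). It fell from P14 to P21 there (log2 difference -0.94, adjusted p = 1.6e-05), in DR GR-KO (-0.54, adjusted p = 0.01) and in NR GR-Con libraries (-0.56, adjusted p = 0.015). By P28 it had risen again in DR GR-Con (P28 minus P21 0.59, adjusted p = 0.016). Stard4 had 32.01 ± 3.55 CPM at P14, 18.1 ± 1.2001 CPM at P21 and 16.5 ± 2.13 CPM at P28 in the same libraries. Stard4 fell in DR GR-Con (-0.83, adjusted p = 0.00026), DR GR-KO (-0.61, adjusted p = 0.007) and NR GR-KO astrocytes (-0.58, adjusted p = 0.024).

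Abcg1 had 12.1 ± 0.885 CPM at P14, 22.6 ± 1.23 CPM at P21 and 21.6 ± 2.04 CPM at P28 in DR GR-Con libraries. It rose in DR GR-Con (0.91, adjusted p = 6.1e-05), DR GR-KO (0.74, adjusted p = 0.0011) and NR GR-Con astrocytes (0.62, adjusted p = 0.0096). Soat1, which esterifies cholesterol for storage, had 97.2 ± 10.2 CPM at P14, 135 ± 12.7 CPM at P21 and 124 ± 7.25 CPM at P28 in NR GR-KO libraries. It rose in NR GR-KO (0.47, adjusted p = 0.00029), NR GR-Con (0.32, adjusted p = 0.0088) and DR GR-KO astrocytes (0.37, adjusted p = 0.0014). Apoe rose in DR GR-Con astrocytes (0.58, adjusted p = 0.014), with log2 differences of 0.44 in DR GR-KO (adjusted p = 0.072), 0.33 in NR GR-Con (adjusted p = 0.21) and 0.18 in NR GR-KO (adjusted p = 0.56), and Nr1h3, an LXR gene, in NR GR-Con astrocytes (0.62, adjusted p = 0.015).

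In DR GR-Con astrocytes the 18 genes that fell were all 7 mevalonate enzymes, 9 of the 11 squalene and sterol enzymes, Stard4 and Abca1. Hmgcs1 had 225 ± 22.4 CPM at P14, 122 ± 4.85 CPM at P21 and 123 ± 22.8 CPM at P28 (P21 minus P14 -0.88, adjusted p = 0.00018). Mvd gave -0.94 (adjusted p = 0.00076) and Fdps -0.84 (adjusted p = 0.0019). Srebf1 rose in DR GR-Con (0.44, adjusted p = 0.0022) and DR GR-KO astrocytes (0.40, adjusted p = 0.0061), and Nsdhl in NR GR-KO astrocytes (0.55, adjusted p = 0.039). The count of 21 members in DR GR-Con was 12 without P14 DR GR-Con replicate 3. In NR GR-KO the count was 1 without P14 NR GR-KO replicate 1, and in NR GR-Con it was 2 without P14 NR GR-Con replicate 1 or 2. Oligodendrocyte markers were at 235 to 466 CPM at P14 and at 688 to 1522 CPM at the later ages. With the marker scores of oligodendrocytes and neurons as covariates the counts were 1 in DR GR-Con and 0 in the other 3 groups, Nsdhl in NR GR-KO had a log2 difference of -0.22, and the marker scores and age cannot be told apart here.

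From P21 to P28 few members were called. Of the 18 enzymes, 17 were above 0 in NR GR-KO (median 0.39), 16 in NR GR-Con (median 0.23) and 15 in DR GR-Con (median 0.21). In DR GR-KO 8 were above 0 (median -0.016). The medians over all genes were 0.0045, 0.026, 0.0058 and -0.0041 in the same order. Srebf1 had 67.3 ± 9.48 CPM at P14, 59.7 ± 6.34 CPM at P21 and 90.5 ± 4.07 CPM at P28 in NR GR-Con libraries and rose over the last step (P28 minus P21 0.60, adjusted p = 0.0019), as the 1 member called against 1.4% of all genes. In NR GR-KO astrocytes Cyp51 (0.62, adjusted p = 0.021) and Stard4 (0.65, adjusted p = 0.03) rose, against 1.6% of all genes. In DR GR-Con astrocytes Tm7sf2 was the 1 member called, against 2.2%, and in DR GR-KO astrocytes Hsd17b7 (-0.62, adjusted p = 0.03) and Abca1 (-0.39, adjusted p = 0.037) fell, against 1.38%. The NR GR-KO count of 2 was 0 without P21 NR GR-KO replicate 2 or 3 or P28 NR GR-KO replicate 1 or 2, and 14 without P28 NR GR-KO replicate 3. In NR GR-Con it was 2 without P28 NR GR-Con replicate 3, and in DR GR-Con it was 0 without replicate 1 of either age. In DR GR-KO it was 1 without P21 DR GR-KO replicate 3 and 0 without P21 DR GR-KO replicate 2 or 4 or P28 DR GR-KO replicate 2, 3 or 4.

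**Figure D5:**
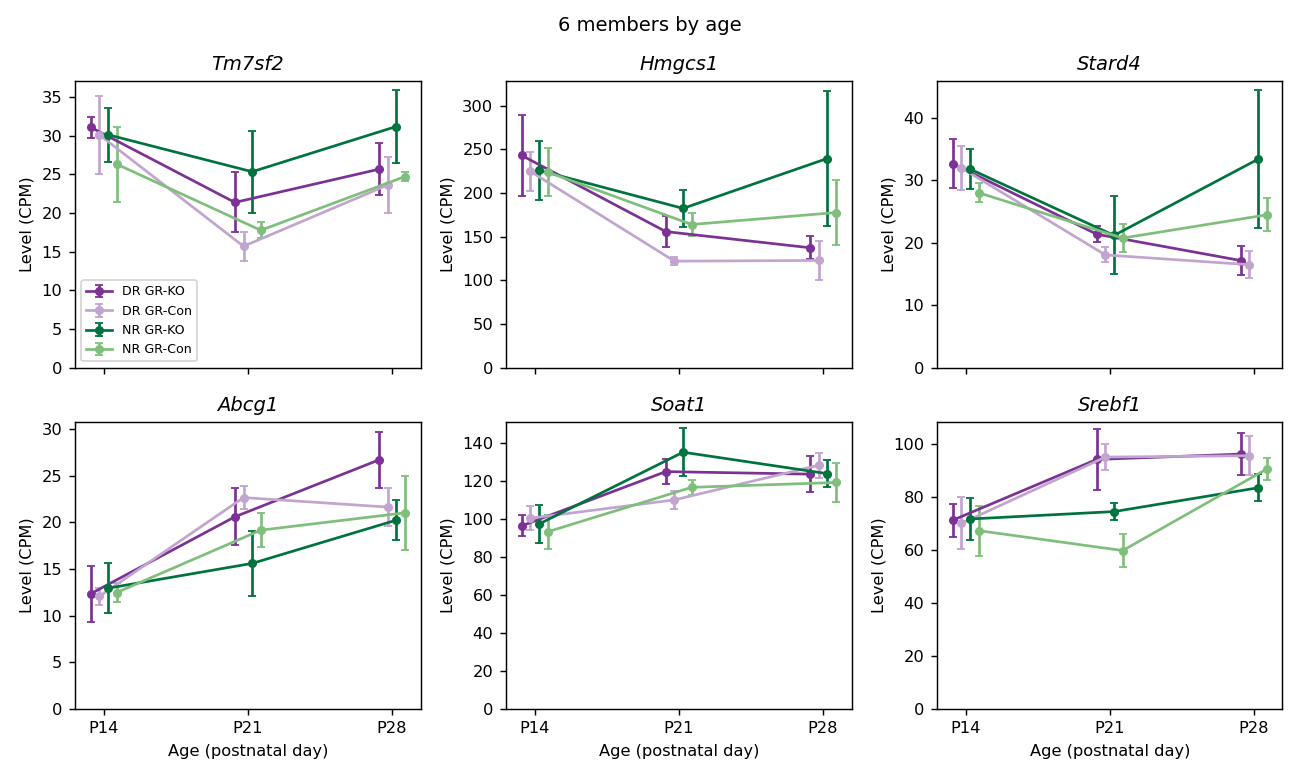
Group mean and SD (y axis, CPM) of Tm7sf2, Hmgcs1, Stard4, Abcg1, Soat1 and Srebf1 at P14, P21 and P28 (x axis), with a line for each rearing and genotype. Hmgcs1 in DR GR-Con is at 225 CPM at P14 and 122 CPM at P21, and Srebf1 in NR GR-Con is at 59.7 CPM at P21 and 90.5 CPM at P28.

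Of the 32 genes, 26 were called in at least 1 of the 29 comparisons. The 6 called in none were Ebp, the sensor genes Scap and Insig2, the LXR gene Nr1h2, and Npc1 and Npc2, which release cholesterol from lysosomes. Over the 40 libraries Scap ranged from 47.3 to 60.6 CPM and Insig2 from 24.3 to 32.2 CPM. Npc1 ranged from 59.7 to 88.5 CPM, Npc2 from 13.0 to 20.6 CPM, Nr1h2 from 19.2 to 31.2 CPM and Ebp from 2.82 to 5.03 CPM. Apoe ranged from 447 to 1136 CPM and was called in no genotype or rearing comparison.

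Some genes of neighbouring pathways moved in the same comparisons. Of 13 genes of fatty acid synthesis, 5 rose in NR GR-KO astrocytes at P28, against 3.4% of all genes, and none fell. Elovl6, a fatty acid elongase, had 308, 329 and 156 CPM in GR-KO libraries and 139, 156 and 133 CPM in GR-Con libraries (log2 difference 0.89, SE 0.19, adjusted p = 0.0025). The others were Acly, Acss2, Acaca and Me1, and Me1 was the 1 gene of the list called at P21, higher in GR-KO in DR (0.55, adjusted p = 0.00078) and in NR (0.40, adjusted p = 0.046). In the DR against NR comparison of GR-KO astrocytes at P28, 3 of the 13 fell, against 0.561% of all genes, Elovl6 (-0.90, adjusted p = 0.0053), Acly (-0.63, adjusted p = 0.014) and Acss2 (-0.72, adjusted p = 0.041). Both comparisons rest on the NR GR-KO libraries with high enzyme levels. The genotype count of 5 was 1 without NR GR-KO replicate 1, 0 without NR GR-KO replicate 2, and 3 without NR GR-Con replicate 1 or 3. The rearing count of 3 was 0 without NR GR-KO replicate 1 or 2, 1 without DR GR-KO replicate 4, 2 without DR GR-KO replicate 2 or 3, and 5 when NR GR-KO replicate 3 was left out. Of 13 genes of sterol transfer within the cell, Gramd1c, which moves sterol from the plasma membrane, was the 1 gene that rose in GR-KO under DR at P21, against 4.3% of all genes, with 40.7 ± 3.52 CPM in GR-KO libraries and 22.4 ± 2.84 CPM in GR-Con libraries (SD, n = 4 each, log2 difference 0.86, adjusted p = 9.2e-07). It rose also in NR at P21 (0.82, adjusted p = 3.6e-05), in NR at P28 (0.71, adjusted p = 0.00043) and in DR at P28 (0.43, adjusted p = 0.019). Among the single comparisons of genotypes, Osbpl8 was the other gene of that list called, in NR at P28, and in the mean over the 6 pairs Osbpl5 (0.16, adjusted p = 0.0032) and Stard3 (0.16, adjusted p = 0.016) were called beside Gramd1c. Of 9 tested genes of lipoproteins and efflux, Abca5 fell in GR-KO in NR at P21 (-0.65, adjusted p = 8.5e-05), in DR at P21 (-0.41, adjusted p = 0.0035) and in DR at P28 (-0.41, adjusted p = 0.005). Pltp rose in NR at P21 (0.65, adjusted p = 0.049) and Abca2 fell in DR at P21 (-0.25, adjusted p = 0.014). None of 6 genes of SREBP processing and 7 of sterol breakdown was called by edgeR for genotype or rearing at P21 or P28. At an unadjusted p under 0.05 each list had at most 2 genes in any of the 4 genotype comparisons. In the mean over the 6 pairs, Cyp7b1 of the sterol breakdown list was higher in GR-KO (0.21, adjusted p = 0.0497), against 10.5% of all genes.

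The genes most like a member were found over the 12 group means of log2 CPM, as a description. Most like Cyp51 were Pmvk (Pearson r 0.98), Idi1 (0.96) and Elovl5 (0.96). Most like Srebf1 were Hdac5 (0.95), Sypl (0.93) and Spint2 (0.93), and most like Abca1 were Prkag2 (0.98), Gucy2f (0.97) and Sncaip (0.97), none of them a member.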

How the data were processed

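Per the labels and the study's methods, the authors sorted GFP-positive nuclei, made stranded total RNA libraries (SMARTer Pico v2), aligned paired reads to mm10 with STAR and counted them over whole gene bodies with featureCounts. Whether the counting used strand is not stated in these sources. The deposited values are raw counts per gene, not normalized. Each library is a separate pool of mice.

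The counts of all 17106 genes kept by filterByExpr, of 25239, were scaled by TMM and fitted with edgeR 4.0.16 (R 4.3.3), 12 group means over 40 libraries, with the quasi-likelihood test and Benjamini-Hochberg adjustment over all genes. The thresholds were an adjusted p under 0.05, with a log2 difference over 0.1 for genotype and over 0.3 for age. The SE is the log2 difference divided by the root of F. CPM values use the same scaling, and log values a prior count of 2. Replicates differed beyond counting noise in all 48 pairs (chi-square per degree of freedom 7.65 to 152). Library totals were 17240294 to 49221787 counts, and the spread between replicates, beyond counting noise, enters the SE. On simulated counts for GR-KO against GR-Con at P21 in NR, 53.7% of 67 genes changed 1.5-fold and 89.6% of 67 genes changed 2-fold were recovered among 16930 genes.

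Alternatives were DESeq2 1.42.0, its size factors, no filter, only the libraries compared, a replicate block, marker scores, leaving out libraries and, chosen after seeing the data, the length slope and, for fatty acid synthesis genes at P28, leaving out each library. Promoter sequences came from RefSeq (GRCm38.p6). Values by library are given for members called in a single comparison of genotypes or rearing. For age, the rule took members called in all 4 comparisons of a step and found none. The rule was to name up to 4 other pathway genes per list, by smallest adjusted p among those called for genotype. For fatty acid synthesis all 5 called at P28 in NR are named instead. The members and lists were chosen with earlier results of these data known. Values of some further genes are not reported here.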

Additional observations from a re-analysis of the deposited data

Results flagged for a closer look

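Among 84 pairs of a gene and a group of 4 libraries, 4 had a library far from the other 3, where chance gives about 1 in 20. Idi1 was at 20.2 CPM in P28 DR GR-Con replicate 4, against 13.4 to 14.3 CPM in the others. Msmo1 was at 162 CPM in P21 DR GR-KO replicate 3, against 187 to 191 CPM. Sqle was at 58.1 CPM in P28 DR GR-KO replicate 3, against 49.8 to 51.0 CPM. Srebf2 was at 209 CPM in P21 DR GR-Con replicate 1, against 197 to 199 CPM.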

How the results depend on the processing

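Of 2124 values of single genes under an alternative, 1739 kept their direction and call, 384 kept their direction and lost the call, and 1 reversed: Nsdhl, P21 minus P14 in NR GR-KO, was -0.22 with marker scores and 0.55 without. For other changes the cause was not tested. Without the 3 libraries with unusual quality measures, 15 calls were lost with the direction kept: Abca1, Mvd and Tm7sf2 for genotype at P21 NR, P28 NR and P21 DR, Nsdhl and Sqle for rearing in GR-KO at P21 and P28, Tm7sf2 in NR GR-Con, Nsdhl in NR GR-KO and Pmvk, Lss and Abca1 in DR GR-Con for P21 minus P14, Hmgcs1 and Cyp51 for the mean genotype effect, and Dhcr7, Sc5d and Stard4 for the mean rearing effect. Counts of members called follow. For genotype at P21 in NR (1) they were 0 with DESeq2 size factors, without a filter, with the replicate block, with marker scores and without the 3 libraries with unusual quality measures, and 2 with DESeq2 and with the length slope. For genotype at P21 in DR (2) they were 15 with only the libraries compared and 1 without a filter, with marker scores and without the 3 libraries. For genotype at P28 they were 0 in NR (3) with only the libraries compared and with the length slope, and 1 in DR (0) with the length slope. For rearing at P21 they were 11 in GR-Con (2) with only the libraries compared and 5 with marker scores, and in GR-KO (1) 3 with marker scores and 0 with only the libraries compared, with the block and without the 3 libraries. For rearing at P28 they were 0 in GR-Con (2) with only the libraries compared and with the block, and 0 in GR-KO (15) with only the libraries compared. For P21 minus P14 they were 9, 2, 0 and 7 in NR GR-Con (4) with only the libraries compared, the block, marker scores and the length slope, 1 and 0 in NR GR-KO (3) with only the libraries compared and marker scores, 7 and 1 in DR GR-Con (21) with the block and marker scores, and 0 in DR GR-KO (7) with marker scores. For P28 minus P21 they were 4, 0 and 3 in NR GR-Con (1) with only the libraries compared, the block and the length slope, 0, 0 and 6 in NR GR-KO (2) and 5, 0 and 0 in DR GR-Con (1) with only the libraries compared, the block and marker scores, and 1 and 0 in DR GR-KO (2) with only the libraries compared and the block. The mean genotype count (11) was 7 with marker scores and 7 with the length slope, and the mean rearing count (13) was 20 with marker scores.

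With 1 library left out the counts ran from 0 to 3, 0 to 2 and 0 to 16 for genotype at P21 NR, P21 DR and P28 NR. For rearing they ran from 0 to 1 at P21 in GR-KO, 0 to 2 at P28 in GR-Con and 0 to 19 at P28 in GR-KO. For P21 minus P14 they ran from 2 to 3 in NR GR-Con, 1 to 3 in NR GR-KO and 12 to 20 in DR GR-Con. For P28 minus P21 they ran from 1 to 2 in NR GR-Con, 0 to 14 in NR GR-KO, 0 to 1 in DR GR-Con and 0 to 2 in DR GR-KO. They ran from 6 to 18 for the mean genotype effect, 8 to 18 for the mean rearing effect and 0 to 1 for genotype by rearing at P28.

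Over all genes, the 111 genes called for rearing in GR-KO at P28 were 235 with DESeq2, 742 with marker scores and 1 with only the libraries compared. The 72 in GR-Con at P28 were 169, 112 and 1 under the same settings, the 214 in GR-Con at P21 were 479, 1343 and 909, and the 24 in GR-KO at P21 were 99 with DESeq2 and 266 with marker scores. Same-numbered libraries of an age had a mean correlation of 0.0218 over 56 pairs (-0.185 to 0.303), and 12 pairs were over 0.1. This mean shows no general pairing by number, but it cannot exclude that some libraries were paired. With the block, rearing in GR-KO at P28 still had 15 members called. A fit to only the libraries compared was not run for the means, which use all groups. Shallow NR libraries at P21 and 3 or 4 libraries a group limit what could be detected.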
